A study of Homo sapiens with 10 samples.

Results

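The genes described here mark endothelial cells, the cells that line blood vessels. They were chosen by name, as the rows of the deposited table whose gene name was 1 of KDR, FLT1, PECAM1, TEK, TIE1, ENG, EGFL7 and ESAM. Of these 8 genes, 7 were analysed out of 12125 genes in all, and PECAM1 was not analysed here. Cells of the human embryonic stem cell (hESC) line H1 were differentiated towards hepatocytes without serum, and the RNA-seq data hold 10 libraries, 1 for each of days 0 to 3, for day 5 and each odd day up to 13, and for day 21. Cells of day 0 were undifferentiated hESCs without added differentiation factors. Cells of days 1, 2 and 3 received Activin A at 100 ng per ml and were presumed definitive endoderm (DE), and those of days 5 and 7 received BMP2 (20 ng per ml) and FGF4 (30 ng per ml) and were presumed hepatoblasts. Cells of days 9 and 11 received HGF and KGF at 20 ng per ml, and those of days 13 and 21 are labelled with Oncostatin M (OSM) at 20 ng per ml and as hepatocyte-like. The protocol gives HGF and KGF for 6 days before OSM, which places day 13 at the end of that step. The factor that the cells of day 13 had met is thus not settled by the labels. The authors place day 13 at the hepatoblast stage, unlike its label, and hepatocyte-like cells at day 21. VEGF is not among the factors the labels name, and every cell identity is given by the submitters as presumed.

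Endothelial cells read the growth factor VEGF through the receptor tyrosine kinase KDR, whereas FLT1 binds VEGF tightly, signals weakly and acts in large part as a trap for it. TEK is the receptor of the angiopoietins, and TIE1 is its relative without a firmly established ligand, which pairs with TEK and tunes its signal. ENG (endoglin) is a co-receptor for BMP and TGFβ ligands, EGFL7 is a secreted protein of the vessel wall matrix, and ESAM is an adhesion molecule of endothelial junctions and platelets. In the embryonic liver, endothelial cells lie against the hepatic bud and later form the sinusoids. None of these genes is restricted to endothelium: KDR is known in pluripotent cells and mesodermal progenitors, and TEK and ENG in blood cell progenitors.

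The values are GC-normalized whole numbers and not read counts, and the depth of each library is not known from them. The methods give only an average depth over the libraries, a low one for RNA-seq, which bears most on low values such as those of TIE1, ENG and ESAM. Each library had a median of 81 or 82, totals ran from 2330948 to 2362740, and the maximum was 18734 in every library. The 7 genes stayed far below it, with a highest value of 889. Differences between days are differences of log2(value + 1), which understate the change of low values. No day has a replicate, so no difference has a test, and every statement below compares single libraries of bulk RNA, in which fewer cells of a type and less RNA per cell cannot be told apart. As a measure of how far libraries of 1 medium differ, the SD of the log2 difference between days 9 and 11 was taken over the 500 genes nearest in level. It was 0.93 at a value of 10, 0.51 at 50, 0.33 at 100 and 0.26 at 300, and true changes between day 9 and day 11 are part of it. A gene is called changed where log2(value + 1) differed by at least 2 (about 4-fold) and the larger value was at least 50. A weaker call, at a difference of at least 1 (about 2-fold), is given beside it. Genes under 50 on both days were not tested for a call, so a gene that is under 50 on the earlier day could be tested only if it was high on the later one.

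Promoter sequences are shown for the genes in which the letters GGAAGT, a form of the core bound by ETS factors, were found, since ETS factors are known regulators of endothelial genes. RefSeq windows of 250 bases before the gene start (build GRCh38.p14) were at hand for 6 of the 7 genes, all but ESAM, with 2 alternative starts each for TEK and EGFL7. Searched on both strands, GGAAGT was found in 4 of these 6 genes (FLT1, TEK, ENG and EGFL7) and in 23.0% of all 27305 genes with such windows. The windows below read 5′ to 3′ along the gene's strand, with the match in capitals. They are those of FLT1 (chr13:28495129-28495378, minus strand), TEK (chr9:27108975-27109224, plus strand, the upstream start), ENG (chr9:127854659-127854908, minus strand) and EGFL7 (chr9:136662666-136662915, plus strand, the downstream start).
FLT1: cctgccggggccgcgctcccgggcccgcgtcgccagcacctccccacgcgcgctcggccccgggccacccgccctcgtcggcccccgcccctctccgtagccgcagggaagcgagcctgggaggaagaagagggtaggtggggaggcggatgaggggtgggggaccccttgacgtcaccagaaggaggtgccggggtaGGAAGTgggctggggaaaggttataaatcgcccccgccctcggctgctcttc
TEK: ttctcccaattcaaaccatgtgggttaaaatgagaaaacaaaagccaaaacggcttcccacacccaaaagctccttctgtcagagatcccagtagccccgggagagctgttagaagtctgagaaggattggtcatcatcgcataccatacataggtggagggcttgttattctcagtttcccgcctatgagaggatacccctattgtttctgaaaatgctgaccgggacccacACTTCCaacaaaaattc
ENG: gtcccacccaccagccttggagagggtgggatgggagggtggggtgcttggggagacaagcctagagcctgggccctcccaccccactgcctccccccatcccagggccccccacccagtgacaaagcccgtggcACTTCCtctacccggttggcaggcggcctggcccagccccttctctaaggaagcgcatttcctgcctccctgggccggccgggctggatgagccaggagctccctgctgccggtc
EGFL7: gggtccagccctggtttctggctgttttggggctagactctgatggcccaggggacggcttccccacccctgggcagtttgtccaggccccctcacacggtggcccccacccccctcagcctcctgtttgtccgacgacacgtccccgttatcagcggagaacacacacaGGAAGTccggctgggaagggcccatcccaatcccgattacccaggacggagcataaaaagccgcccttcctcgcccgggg
The match begins 52 bases before the start in FLT1, 17 in TEK, 115 in ENG and 80 in EGFL7, and in TEK and ENG it lies on the opposite strand as ACTTCC. The windows of KDR and TIE1 held no GGAAGT. The letters AGATAA, a form of the GATA site, were found in the downstream window of TEK alone, against 11.1% of all genes, and ACAAAG, a form of the SOX site, in KDR, TEK, ENG and EGFL7, against 16.3%. These matches describe letters in the windows, and binding was not measured.

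Taken over the whole course, all 7 genes had their highest value on day 11, 13 or 21. KDR and FLT1 were lowest on day 5 and TEK and ENG on day 7, and TIE1 had its lowest value, 3, on days 2 and 5. Of the 10746 genes that reached 50 in some library, 31.1% had their highest value at these days. TIE1 and ESAM reached 50 only on day 9 or later and passed this limit through late libraries, so nothing is read from the count. FLT1 had nearly the same value on day 1 (212) as on day 21 (214).

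**Figure D1:**
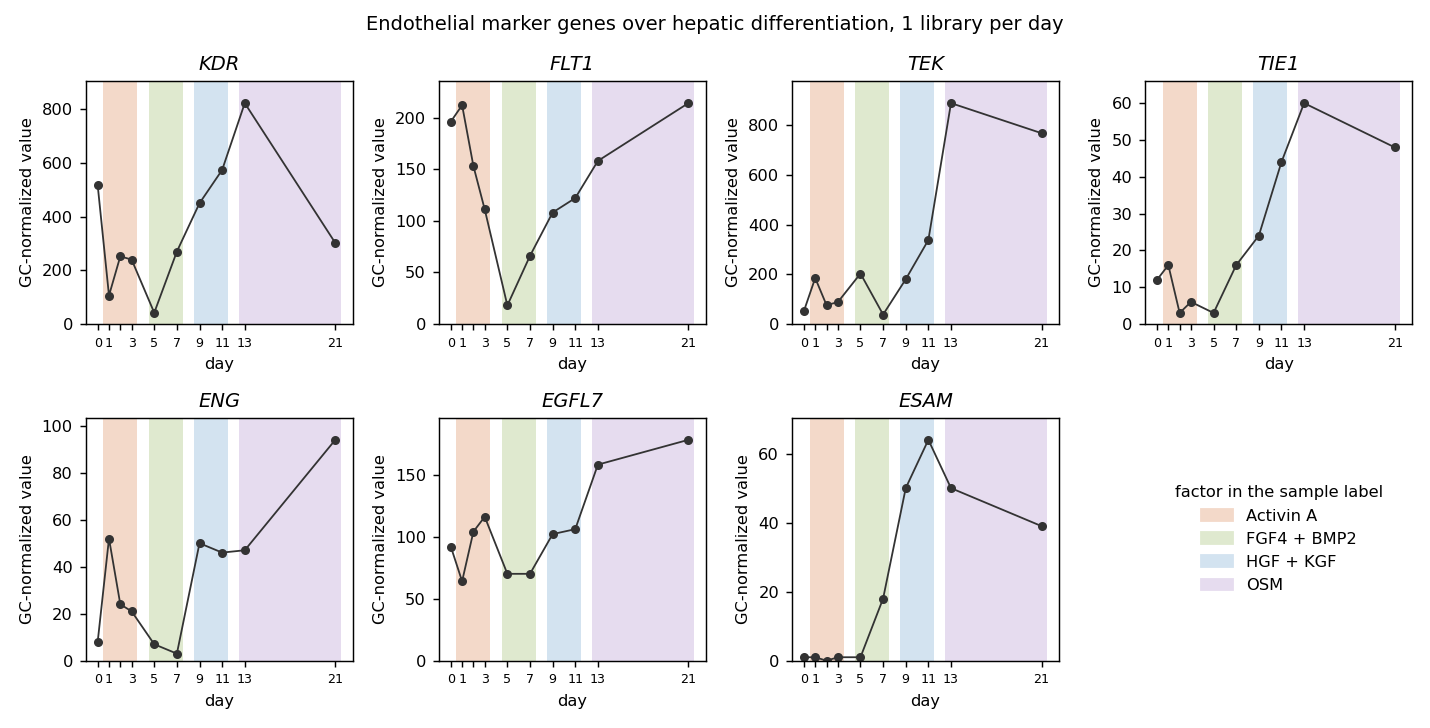
GC-normalized value (y axis, from 0, a scale of its own in each panel) against day (x axis) for each of the 7 genes. Each point is 1 library, lines only join the points, and shading gives the factor named in the sample label. KDR and FLT1 start high and are lowest on day 5, ESAM is at 1 or 0 up to day 5, and all panels rise between days 7 and 13.

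The VEGF receptors KDR and FLT1 were present in undifferentiated hESCs. KDR (ENSG00000128052, chromosome 4, 55944644 to 55991756, minus strand) had values of 517 on day 0, 106, 252 and 240 on days 1, 2 and 3, 42 and 270 on days 5 and 7, 450 and 574 on days 9 and 11, 823 on day 13 and 302 on day 21. Its level was highest on day 13, then on days 11, 0 and 9, and no other day lay within 0.27, the SD between days 9 and 11 at that level, of the highest. Coordinates are those of the deposited table, which names no build. FLT1 (ENSG00000102755, chromosome 13, 28874489 to 29069232, minus strand) had 196 on day 0, 212, 153 and 111 on days 1, 2 and 3, 18 and 66 on days 5 and 7, 108 and 122 on days 9 and 11, 158 on day 13 and 214 on day 21. Days 21, 1 and 0 were its highest and lay within 0.27 of each other on the log2 scale. KDR and FLT1 differed at the first step. KDR dropped by 2.28 on the log2 scale from day 0 to day 1, whereas FLT1 differed by 0.11. At day 5 both had their lowest values, 12.3-fold lower than on day 0 for KDR and 10.9-fold lower for FLT1. From day 13 to day 21 they parted again, with a log2 difference of -1.44 for KDR and 0.44 for FLT1.

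TEK and TIE1, the angiopoietin receptor and its relative, were low in hESCs and highest on day 13. TEK (ENSG00000120156, chromosome 9, 27109139 to 27229685, plus strand) had 52 on day 0, 185, 76 and 88 on days 1, 2 and 3, 203 and 38 on days 5 and 7, 180 and 338 on days 9 and 11, 889 on day 13 and 768 on day 21. At day 5, where KDR and FLT1 were at their lowest, TEK stood above its values of days 0 to 3, and it was lowest on day 7. Days 13 and 21 lay within 0.27 of each other. TIE1 (ENSG00000066056, chromosome 1, 43766664 to 43788779, plus strand) had 12 on day 0, 16, 3 and 6 on days 1, 2 and 3, 3 and 16 on days 5 and 7, 24 and 44 on days 9 and 11, 60 on day 13 and 48 on day 21. TIE1 reached 50 in 1 library only, so its early values lie in the range where libraries differ most. Its values on days 13 and 21 were not separable by the SD at that level, 0.39.

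ENG, EGFL7 and ESAM followed 3 different early courses. ENG (ENSG00000106991, chromosome 9, 130577291 to 130617035, minus strand) had 8 on day 0, 52, 24 and 21 on days 1, 2 and 3, 7 and 3 on days 5 and 7, 50 and 46 on days 9 and 11, 47 on day 13 and 94 on day 21. Its rise on the first day of Activin A and its rise between days 7 and 9 were separated by a minimum on day 7, and day 21 stood alone as the highest. Exons of ENG overlap an antisense RNA (AL162586.1) in GENCODE release 29, and as counting by strand is not stated in the sources used here, reads of the pair may not be told apart. EGFL7 (ENSG00000172889, chromosome 9, 139553308 to 139567130, plus strand) had 92 on day 0, 64, 104 and 116 on days 1, 2 and 3, 70 on days 5 and 7, 102 and 106 on days 9 and 11, 158 on day 13 and 178 on day 21. EGFL7 varied least, with a highest value 2.78-fold its lowest. ESAM (ENSG00000149564, chromosome 11, 124622479 to 124632186, minus strand) had 1 on days 0, 1, 3 and 5, was listed at 0 on day 2, and had 18 on day 7, 50 and 64 on days 9 and 11, 50 on day 13 and 39 on day 21. ESAM was thus at the bottom of the scale up to day 5, and its values on days 9, 11 and 13 lay within 0.39 of each other on the log2 scale.

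During the Activin A step, from day 0 to day 3, no gene of the 7 was called. Of the 4 that could be tested (KDR, FLT1, TEK and EGFL7), 0 were called higher, against 3.94% of all genes tested, and 0 lower, against 2.16%. At the weaker call KDR was lower, with a log2 difference of -1.10, as were 9.07% of all genes tested, and 0 were higher, against 11.1%. The median log2 difference of the 7 genes was 0 and that of all genes -0.04, with 3 of the 7 higher and 3 lower. The median of 0 was that of ESAM, which had 1 on both days, and the 4 genes tested ran from -1.10 for KDR to 0.75 for TEK. From day 0 to day 1, KDR was called lower (0.811% of all genes tested) and ENG higher (1.02%), by 2.56 on the log2 scale. TEK was higher by 1.81 over that day. The values of KDR, TEK and ENG moved back towards those of day 0 by day 2.

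During the FGF4 and BMP2 step, from day 3 to day 7, the VEGF receptors fell and rose again. At day 5 KDR and FLT1 were called lower than on day 3, by log2 differences of -2.49 and -2.56, as were 2.24% of all genes tested. From day 5 to day 7 KDR was called higher (2.25% of all genes tested), by 2.66, and FLT1 was higher by 1.82. TEK moved the other way at each of these steps, from 88 to 203 and then to 38, the latter a log2 difference of -2.39 that was called lower (1.34%). Between the ends of the stage, days 3 and 7, 0 of 4 genes tested were called higher (5.63% of all genes tested) and 0 lower (4.41%), and at the weaker call TEK was lower (12.8% of all genes tested) and 0 were higher (13.2%). ESAM went from 1 to 18 and TIE1 from 6 to 16 between these days, both under the value of 50 needed for a test.

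**Figure D2:**
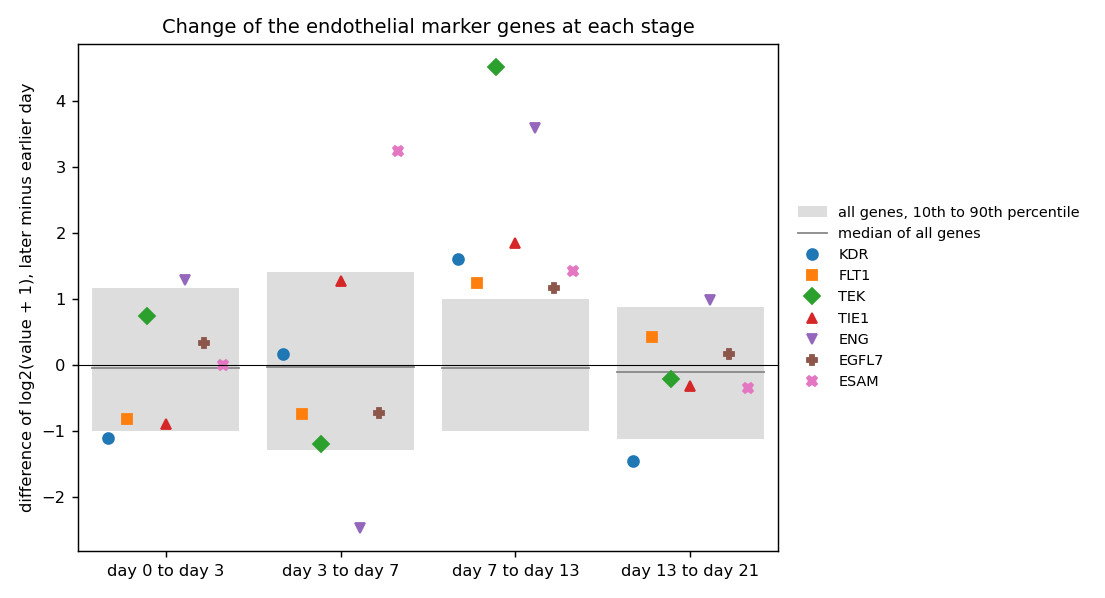
Difference of log2(value + 1), later minus earlier day (y axis), for the 7 genes (symbols) at the 4 stages (x axis), each from 2 single libraries. Grey boxes span the 10th to the 90th percentile of all 12125 genes and grey lines their median. All 7 symbols lie above the box for day 7 to day 13.

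From day 7 to day 13 all 7 genes were higher. TEK went from 38 to 889, by 4.51 on the log2 scale, and was the 1 gene called higher of 6 tested, against 3.08% of all genes tested, with 0 lower against 2.46%. At the weaker call 6 of the 6 tested were higher, against 9.65% of all genes tested, and 0 were lower, against 8.21%. TEK, TIE1 and ESAM were under 50 on day 7 and could be tested only through their values on day 13, so nothing is read from this count. The genes were KDR (1.60), FLT1 (1.25), TEK, TIE1 (1.84), EGFL7 (1.16) and ESAM (1.42). ENG, with 3 and 47, fell short of the value of 50 and was not tested. The median log2 difference of the 7 genes was 1.60 and that of all genes -0.04, and 45.5% of all genes were higher on day 13. KDR, FLT1, TEK, TIE1 and EGFL7, 5 of the 6 genes tested, were higher in each library than in the one before, as were 13.3% of all genes tested. TEK and TIE1 could again be tested only through day 13, so nothing is read from this count. From day 9 to day 11 FLT1 (0.17) and EGFL7 (0.05) differed by less than the SD at their level (0.34 and 0.35). KDR, TEK and TIE1 differed by more than theirs. ENG rose between days 7 and 9 and ESAM between days 5 and 11. With day 11, whose label and protocol give the same factors, in place of day 13, the median difference was 1.40 and all 7 genes were again higher than on day 7. With day 9 in place of day 7 it was 0.63, below the 90th percentile of all genes (0.66). Then 5 of the 7 genes were higher, ENG was lower and ESAM had 50 on both days, and TEK was called higher (0.882% of all genes tested).

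From day 13 to day 21 the genes moved apart. KDR fell from 823 to 302, whereas ENG went from 47 to 94 and FLT1 from 158 to 214. Of the 7 genes tested, 0 were called higher (2.28% of all genes tested) and 0 lower (1.62%). At the weaker call KDR was lower (9.08% of all genes tested) and 0 were higher (8.57%). The median log2 difference was -0.21, against -0.10 for all genes. TEK, TIE1, EGFL7 and ESAM each differed by less than 0.36 on the log2 scale. Against day 11 the median difference on day 21 was 0.74, so the sign of the median turned with the library that day 21 was set against.

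Between the ends of the course, hESCs and day 21, TEK (by 3.86) and ENG (by 3.40) were called higher, 2 of 5 genes tested, against 11.9% of all genes tested, and 0 were lower, against 11.5%. At the weaker call the same 2 genes were higher (23.9% of all genes tested) and 0 lower (26.4%). ENG was under 50 on day 0 and could be tested only through day 21, so nothing is read from these counts. ENG was called against day 0 but not against day 1, when its log2 difference to day 21 was 0.84. KDR and FLT1 differed by -0.77 and 0.13. The median log2 difference of the 7 genes was 1.91 and that of all genes -0.12. Scaling the libraries by their median of ratios shifted the differences between these days by a median of 0.19. It turned no sign among the 7 genes, but 3 were then called higher. The added gene, TIE1, was not tested before, with values of 12 and 48. Scaling brought its larger value past 50 and its log2 difference from 1.91 to 2.10.

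The 7 genes did not follow a single curve. Over the 10 libraries, the Pearson correlation of log2(value + 1) was positive for all 21 pairs, with a median of 0.58. It was highest for TIE1 and ESAM (0.88) and for TEK and ENG (0.76), and lowest for FLT1 and ESAM (0.13) and for FLT1 and TEK (0.17). The VEGF receptors KDR and FLT1 had 0.62, and TEK and TIE1 0.65. The libraries are successive days of 1 course, so these values describe curves and are given without a test. Among 10746 genes with a value of at least 50, the 3 genes whose curves were most like that of KDR were GLI3 (0.96), CEBPG and MSR1. For FLT1 they were MAPRE2 (0.96), GSDMD and APOL2, and for TEK FAM129B (0.95), FXYD6 and ARID5B. For TIE1 they were VASH1 (0.98), which codes for the angiogenesis regulator vasohibin, RNH1 and KCTD20, and for ENG SDF2 (0.90), ASL and CWC15. For EGFL7 they were CLDN1 (0.98), SMOC2 and WDR41, and for ESAM SLC3A1 (0.99), C11orf24 and WISP1. With 10 points and so many genes, high values of the correlation are found for most curves.

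Other endothelial genes, as a list, had another median than the 7 genes between days 3 and 7, though most of them were low on both days. Of 37 further genes listed, 19 were analysed here, and 8 of them were highest on day 13, as were 8.19% of all genes. All genes analysed reached at least 26 in some library. Genes that were low early were thus analysed only through their late values, so nothing is read from this count. From day 3 to day 7, when the 7 genes had a median log2 difference of -0.72, the 19 genes had one of 1.74, with 15 of them higher. The 1.74 was the difference of MMRN2, which went from 2 to 9. Only 5 of the 19 genes reached 50 on either day, so most lay where libraries differ most. The median of the 7 genes was -0.81 from day 3 to day 5 and 1.82 from day 5 to day 7. Which began to rise first is therefore not read from these medians. CD34, EPAS1 and TM4SF18 were called higher, 3 of 5 genes tested (5.63% of all genes tested). All 3 were under 50 on day 3 and could be tested only through day 7, so nothing is read from this count. CDH5, the cadherin of endothelial junctions, had 3 on day 0, 3, 18 and 9 on days 1, 2 and 3, 8 and 34 on days 5 and 7, 114 and 122 on days 9 and 11, 152 on day 13 and 120 on day 21. FLI1, an ETS factor of endothelial and blood cells, went from 7 on day 0 and 3 on day 5 to 24 on day 7, 72 on day 13 and 43 on day 21. Both had the late rise of the 7 genes without the early level of KDR and FLT1. PLVAP, a protein of endothelial fenestrae, was listed at 0 on days 0 and 5 and had 18 on day 7, 137 on day 9 and 177 on day 13. EMCN, a sialomucin of vessel walls, was listed at 0 on days 5 and 7 and had 41, 63 and 48 on days 9, 11 and 13. CDH5, PLVAP, MMRN1 and MMRN2 were called higher from day 7 to day 13, 4 of 11 genes tested (3.08% of all genes tested). All 4 were under 50 on day 7 and could be tested only through day 13, so nothing is read from this count. The median log2 difference over the 19 genes was 0.96, that of S1PR1, which went from 17 to 34.

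**Figure D3:**
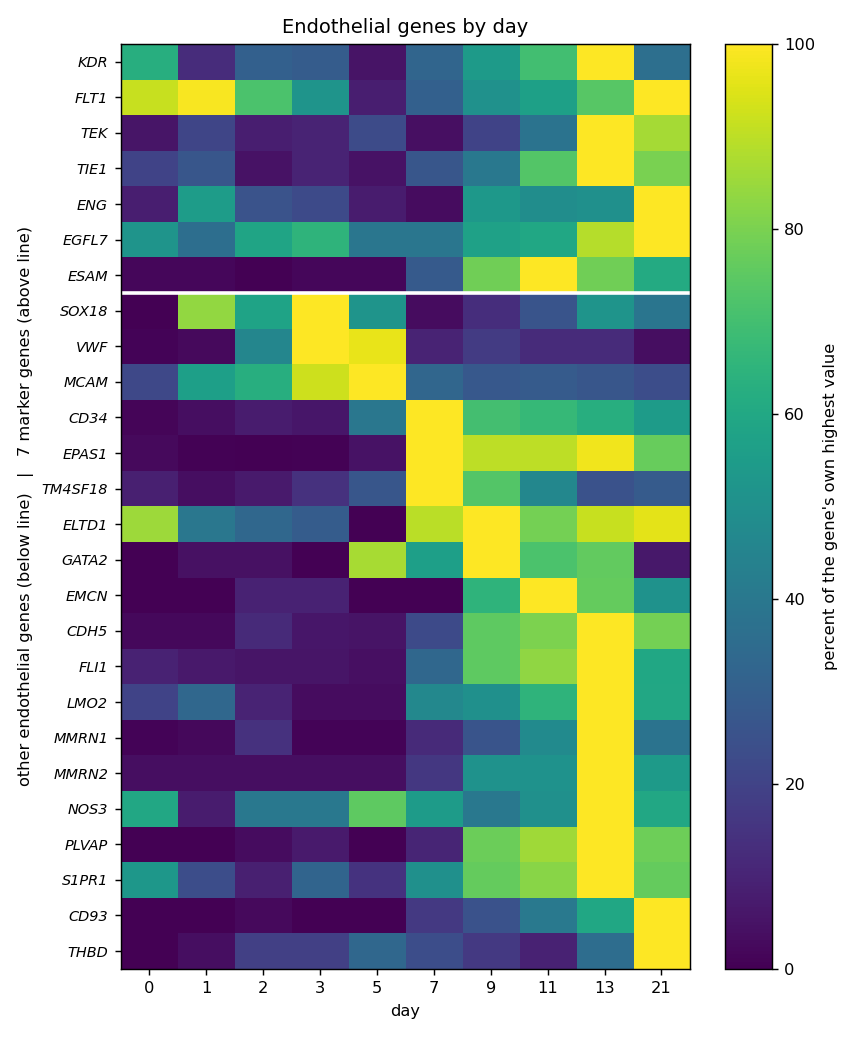
Value as a percentage of the gene's own highest value (colour) for the 7 marker genes (above the white line) and 19 other endothelial genes (below it, ordered by the day of the highest value), by day (x axis, days evenly spaced). VWF and MCAM are highest on days 3 and 5, and CDH5, FLI1, PLVAP and MMRN2 on day 13.

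VWF, the clotting protein stored by endothelial cells, did not follow them. It had 3 on day 0, 8, 142 and 309 on days 1, 2 and 3, 299 and 31 on days 5 and 7, 54 and 38 on days 9 and 11, 38 on day 13 and 12 on day 21. It was thus highest in presumed DE and on day 5, when KDR and FLT1 fell to their lowest values and CDH5 stood at 9 and 8. VWF was called higher from day 0 to day 3 and lower from day 3 to day 7. MCAM, an adhesion molecule of vessel walls, was also highest on day 5, with 236, and had 63 on day 13. CD34, a surface protein of endothelial and blood progenitors, was highest on day 7, with 131, and had 82 on day 13. Endothelial genes were thus not all highest on the same days.

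Ligands of the receptors were measured in the same libraries. VEGFA, the main ligand of KDR, had 179 on day 0, 51, 99 and 118 on days 1, 2 and 3, 675 and 901 on days 5 and 7, 604 and 744 on days 9 and 11, 918 on day 13 and 1087 on day 21. VEGFA was thus called higher from day 3 to day 7. At day 5, where VEGFA was already at 675, KDR and FLT1 were at 42 and 18. PGF, a ligand of FLT1, rose from 5 on day 3 to 159 on day 7 and 294 on day 11, and had 162 on day 21. VEGFB, another ligand of FLT1, stayed between 50 and 147, and VEGFC, the ligand of FLT4 that also binds KDR, was highest on day 13, with 114. The co-receptor NRP2 had 60 and 72 on days 0 and 1, 405 on day 3, 72 on day 5 and 598 on day 13, so it fell from day 3 to day 5 as KDR and FLT1 did but, unlike them, was low on day 0, whereas NRP1 stayed at 60 to 63 over days 3 to 7 and was 164 on day 21. FLT4, the lymphatic VEGF receptor, was 68 on day 0, 12 on day 5 and 85 on day 13. Of the 7 VEGF genes analysed beside KDR and FLT1, 7 were higher on day 13 than on day 7, against 45.5% of all genes. Their log2 differences ran from 0.03 for VEGFA and 0.32 for VEGFB to 2.34 for FLT4. The count depends on the library, since on day 11 VEGFA (744) was below its value of day 7 (901) and VEGFB had 72 on both days. Nothing is read from it. FLT4 was the 1 called (3.08% of all genes tested), and with 16 on day 7 it could be tested only through day 13.

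**Figure D4:**
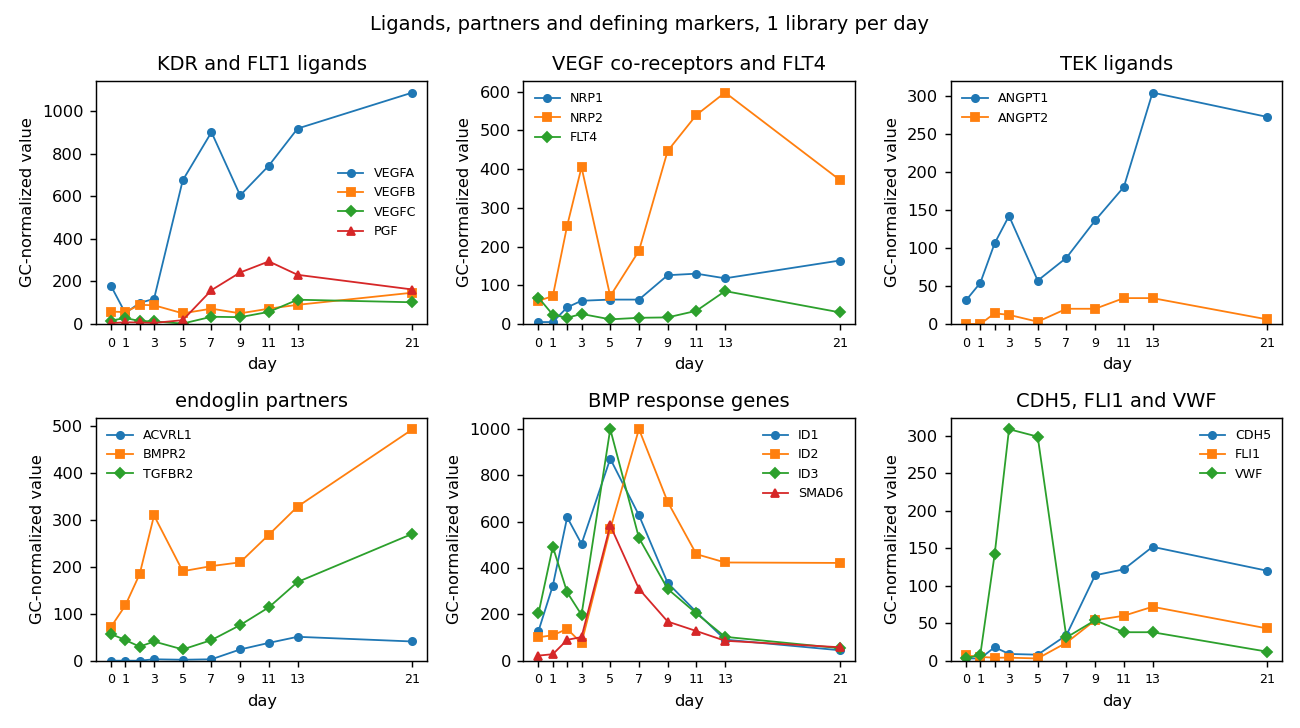
GC-normalized value (y axis, from 0, a scale of its own in each panel) against day (x axis) for ligands, partners and response genes of the receptors and for CDH5, FLI1 and VWF. Each point is 1 library. VEGFA stands at 675 on day 5, ANGPT1 is highest on day 13 with 304, and VWF is highest on day 3 with 309.

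ANGPT1, the activating ligand of TEK, was 31 on day 0, 142 on day 3, 57 on day 5, 87 on day 7, 136 and 180 on days 9 and 11, 304 on day 13 and 272 on day 21. ANGPT1 and TEK were both highest on day 13 and opposite on day 5, where TEK stood at 203. ANGPT2, the ligand that can oppose it, did not exceed 34 in any library. Among the partners of ENG, the endothelial type I receptor ACVRL1 was listed at 0 on days 0, 1 and 2 and had 3 on day 7, 24 on day 9, 51 on day 13 and 41 on day 21. ACVRL1 was called higher from day 7 to day 13 (3.08% of all genes tested), but with 3 on day 7 it could be tested only through day 13. ENG went from 3 to 47 over the same days and was not tested for a call. BMPR2 was 72 on day 0, 310 on day 3, 329 on day 13 and 494 on day 21, and TGFBR2 24 on day 5, 168 on day 13 and 271 on day 21. Among the BMP response genes, ID1 had 128 on day 0, 504 on day 3, 872 on day 5 and 91 on day 13, and ID3 had 204, 198, 1000 and 103. Both were called lower from day 7 to day 13. ID2 had 101 on day 0, 1000 on day 7 and 424 on day 13, a log2 difference of -1.24 between the latter that was not a call, and it was called higher from day 0 to day 21.

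Genes of other cell types moved over the same days. Mural cells wrap vessels, and 9 mural genes were analysed. From day 7 to day 13 PDGFRB, CSPG4 and KCNJ8 were called higher (3.08% of all genes tested) and RGS5 lower (2.46%). The 3 called higher were under 50 on day 7 and could be tested only through day 13, so nothing is read from their number. The summed value was 2048 on day 7, of which RGS5 alone made 1158, and 1957 on day 13, of which RGS5 made 280. Of 15 leukocyte and macrophage genes listed, 5 were analysed. Their summed value was 856 on day 7, of which LCP1 alone made 838, 473 on day 13 and 658 on day 21. PTPRC, the pan-leukocyte gene, had 39 on day 0, was listed at 0 from day 3 to day 13 and had 65 on day 21, when ENG was at its highest, and CD68 went from 50 on day 13 to 259 on day 21. STAB1, a scavenger receptor of liver sinusoids that macrophages also carry, had 21 on day 7, 88 on day 13 and 386 on day 21, 1 of 4 genes analysed of 14 sinusoidal genes listed. MAF, a factor of sinusoidal endothelium and macrophages, had 202 on day 13 and 642 on day 21. From day 13 to day 21 STAB1 and CD36, another of these 4 genes, were called higher (2.28% of all genes tested). CD36 went from 28 to 128 and could be tested only through day 21. OIT3 was called lower (1.62%), from 98 to 16. In hESCs, where KDR and FLT1 were at 517 and 196, the 6 pluripotency genes summed to 12133, and by day 13 to 680, of which LIN28A alone made 606. The 6 hepatocyte genes summed to 98 on day 3, 31996 on day 7 and 49987 on day 13, and TTR and SERPINA1 were called higher from day 7 to day 13. AFP from day 7 on and TTR from day 9 on stood at 18734, the top value of every library, and made most of these sums. The part of these cells in the values of the 7 genes was not tested.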

How the data were processed

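Bulk RNA-seq values of 10 libraries, 1 for each day, were analysed. The authors prepared the libraries with an Illumina TruSeq RNA kit, aligned the reads with Bowtie2 2.2.0 and RSEM 1.2.17 to an Ensembl transcriptome that the methods name mm10, and used EDASeq to correct for GC content. The submitters' processing notes name hg19 as well as mm10. The values the authors deposited are scores, whole numbers with nearly the same distribution in every library and not counts, so the depth of each library is not known (the methods give only a low average), differences in depth cannot be seen and no count test was possible. Columns were matched to samples by the day in their name, and 0 columns were left over.

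Values were used as deposited, and log2(value + 1) was compared between the libraries at the ends of each stage. All 12125 genes entered the background. With 1 library per day no test was made and no p-value is given. Calls needed a log2 difference of at least 2 and a larger value of at least 50, with 1 as the weaker limit. Summed values add the genes of a list. All 7 genes analysed were matched by identifier in GENCODE release 29. Python 3.11.15, numpy 2.4.6, pandas 2.3.3 and matplotlib 3.10.9 were used, and the code was tested on simulated data. The genes named are the 7 genes, those of 10 lists written from textbook knowledge (the result of the list of blood cell progenitors is not reported here), and for each of the 7 the 3 genes of highest correlation. The motif letters were chosen after the values were seen. The 7 genes and the lists were chosen with earlier results of these data known. Alternatives were other pseudocounts, scaling, limits for a call and neighbouring days. Data of primary hepatocytes and liver, and single-cell qPCR, were not analysed here.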

Additional observations from a re-analysis of the deposited data

How the results depend on the processing

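No paired analysis was possible because each day has 1 library and the labels give no replicate numbers, and no library could be left out of a group for the same reason. Pseudocounts of 5 and 0.1 changed no count of calls, and scaling by the median of ratios changed 1 count, from 2 to 3 genes higher from day 0 to day 21. Neither turned a sign or moved a median by more than the SD between days 9 and 11 (0.35, the median over the 7 genes), but the pseudocounts moved single differences of the low genes ENG and ESAM by more than that, such as ESAM from day 3 to day 7, at 1.94 and 4.04 in place of 3.25. Counts moved with the limits for a call, by construction. With a log2 difference of at least 1, 1 gene was lower from day 0 to day 3, 1 from day 3 to day 7 and 1 from day 13 to day 21, each in place of 0, and 6 in place of 1 were higher from day 7 to day 13. With no minimum value, 1 gene was higher and 1 lower from day 3 to day 7, 2 were higher from day 7 to day 13, and 3 in place of 2 were higher from day 0 to day 21. With a larger value of at least 200, 1 in place of 2 was higher from day 0 to day 21. Replacing a library by that of a neighbouring day was added after seeing the data. The median difference was -0.36 from day 0 to day 2 and -0.93 from day 1 to day 3, in place of 0. From day 3 to day 5, 2 genes were lower. From day 9 to day 13 the median was 0.63, and from day 5 to day 13 it was 3.06 with 5 genes called higher, in place of 1.60 and 1. Day 5 was the lowest day of KDR and FLT1, and 4 of these 5 genes could be tested only through day 13, so this count is no support. From day 11 to day 21 the median was 0.74 in place of -0.21. From day 1 to day 21, 1 gene was higher and the median was 1.50. These changes follow from the different library, and why the libraries differ was not tested. The depth of each library is not known, and ESAM, TIE1 and ENG lay under 50 in 7 or more libraries, where single values vary most.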
